A study of Homo sapiens with 10 samples.

Results

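The difference between the effects of TEX10 knockdown and RELA knockdown was taken, gene by gene, over all 10 RNA-seq libraries of the series. For each gene it was the change from shNC1 to TEX10_sh minus the change from shNC2 to p65_sh, on log2(CPM + 0.5), where CPM is the reads of a gene scaled to the size of its library, and all 10 libraries were rescaled together. A positive difference means that the gene was higher after TEX10 knockdown, relative to its own control, than after RELA knockdown relative to its own. Of the 10 libraries, 6 came from the TEX10 experiment and 4 from the RELA experiment.

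The cells were HCT116, an established human colorectal cancer line. TEX10_sh cells (n = 3) carried a short hairpin RNA (shRNA) against TEX10 and p65_sh cells (n = 2) carried one against RELA, the gene for the p65 subunit of NF-kB. The controls, shNC1 (n = 3) for TEX10_sh and shNC2 (n = 2) for p65_sh, carried a negative control shRNA. Lentivirus was applied for 24 h, and puromycin selection over 3 days followed before RNA was taken. The labels name neither the hairpin that was sequenced nor whether replicates came from separate cultures, so each p-value reflects only how far these libraries scatter, which may be technical. The 2 experiments also carry separate series of library numbers, and each knockdown was made only in its own experiment. For every gene, what sets the experiments apart therefore cannot be told apart from a difference between their knockdowns. Close levels in shNC1 and shNC2 do not remove this limit, since neither knockdown was measured in the other experiment.

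TEX10 is a nuclear protein best known from the PELP1-TEX10-WDR18 complex, which acts in maturation of the large ribosomal subunit, and from work on transcription at enhancers. RELA pairs with other Rel proteins, is held in the cytoplasm by IkB proteins, and on release activates genes of inflammation and survival. Some pathways respond to many kinds of stress in colon cancer cells: p53 activates genes of cell cycle arrest, repair and death, while ATF4 activates genes that import and make amino acids.

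In the knockdown check, TEX10 (ENSG00000136891) measured 74.4, 72.3 and 70.3 CPM in shNC1, 30.9, 32.0 and 31.9 CPM in TEX10_sh, 71.1 and 68.0 CPM in shNC2, and 75.8 and 77.2 CPM in p65_sh. The 3 TEX10_sh libraries lay far below the other 7. The TEX10 effect on TEX10 was -1.18 ± 0.037 (log2, SE) and the RELA effect was 0.14, with an adjusted p of 0.019 that missed the threshold of 0.01. RELA (ENSG00000173039) measured 79.9, 79.8 and 79.0 CPM in shNC1, 66.4, 66.3 and 69.6 CPM in TEX10_sh, 92.7 and 104 CPM in shNC2, and 30.1 and 31.6 CPM in p65_sh. The 2 p65_sh libraries were lowest, and the TEX10_sh libraries also lay below shNC1 without overlap. The RELA effect on RELA was -1.66 ± 0.05 and the TEX10 effect was -0.24 ± 0.041 (limma with Benjamini-Hochberg adjustment, adjusted p = 5.49e-05). The difference was -1.32 ± 0.058 at TEX10 and 1.42 ± 0.064 at RELA.

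The libraries held 28606464 to 44658105 reads, and each read total gave a floor of 3 reads at 0.0672 to 0.105 CPM. Replicates of a group differed by more than counting error, with a chi-square per degree of freedom of 2.24 to 4.43, and no pair was identical. Of the epithelial markers, KRT8 lay at 1760 to 2149 CPM, KRT18 at 907 to 1065 CPM and EPCAM at 206 to 261 CPM, while VIL1 did not pass 1.9 CPM. Of 17 markers of fibroblasts, endothelium, immune and neural cells, 13 stayed under 1 CPM in every library, DCN and CD3E were at 0 in all, and COL1A1 (39.4 to 51.2 CPM) and MAP2 (13.98 to 22.4 CPM) made up most of their sum. That sum was 61.1 to 63.5 CPM in shNC1 and 63.7 to 65.3 CPM in TEX10_sh, and reached 65.9 to 69.4 CPM with shNC2 and 72.1 to 75.5 CPM with p65_sh. The control groups themselves differed. Between shNC1 and shNC2, 1830 genes (10.2% of those tested) were higher and 2103 (11.7%) lower in shNC1. The value of shNC1 minus shNC2 is given below, for part of the genes, as the control difference. A gene named without it need not have a small one.

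Of 17922 genes tested, 3717 passed in the difference at an adjusted p under 0.01 (limma, Benjamini-Hochberg). The difference was positive in 2165 of them (12.1% of genes tested) and negative in 1552 (8.66%). For comparison, 3563 genes (19.9%) rose and 3369 (18.8%) fell after TEX10 knockdown, and 2408 (13.4%) rose and 2897 (16.2%) fell after RELA knockdown. These shares over all genes tested are the background for the list counts below. The median difference over all genes tested was 0.0077. Of the calls, 58.3% were positive, and with scaling by library totals alone 47.9% were. Most differences were modest, with a median size of 0.40 among the called genes. A difference of at least 1.5-fold was reached by 490 of the positive calls and 431 of the negative calls.

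The called genes fell into distinct patterns. In 488 of them both knockdown effects passed and had opposite signs, 318 higher after TEX10 knockdown and lower after RELA knockdown and 170 the reverse. With scaling by library totals alone these were 225 and 229. In 1506 genes the TEX10 effect passed and the RELA effect did not, with 837 genes higher and 669 lower after TEX10 knockdown. In 1080 genes the RELA effect passed and the TEX10 effect did not, with 459 higher and 621 lower after RELA knockdown. The 1506 and 1080 do not stand on equal terms. Groups of 2 libraries give the RELA effect a larger SE than groups of 3 give the TEX10 effect (0.037 against 0.030 at CDKN1A). A RELA effect of the same size therefore passed less easily, and an effect that did not pass need not be 0. The remaining calls were 519 genes that moved the same way by unequal amounts, 219 up and 300 down in both, and 124 genes in which neither effect passed alone. Opposite movement was seldom large in both experiments. Both effects reached 1.5-fold in 2 genes that were higher after TEX10 knockdown, FCGBP and DPF3 (DPF3 was singled out after its values were seen), and in 12 genes that were lower.

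**Figure D1:**
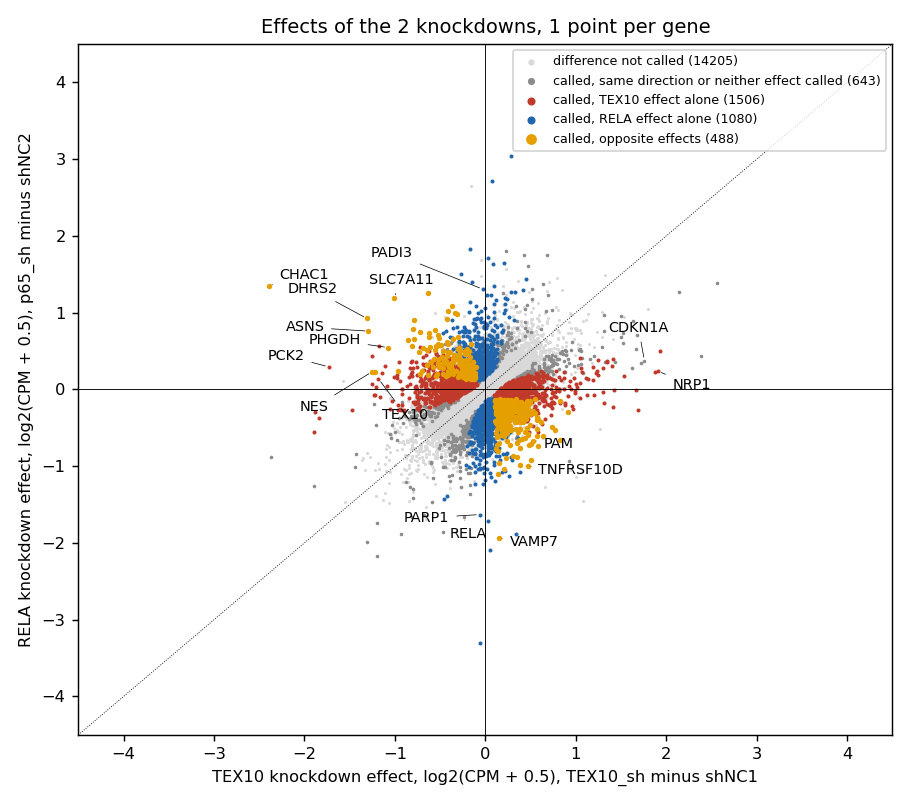
TEX10 knockdown effect (x axis) against RELA knockdown effect (y axis) for all 17922 genes tested, each on log2(CPM + 0.5), with genes coloured by pattern and the dotted line marking equal effects. The 488 genes with opposite effects fill the upper left and lower right, where CHAC1 (-2.40 and 1.35) and TNFRSF10D (0.47 and -1.002) stand, and the genes called in 1 experiment alone lie along the axes.

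Several genes of amino acid supply were lower after TEX10 knockdown and higher after RELA knockdown. CHAC1, an ATF4 target whose enzyme breaks down glutathione, had the largest negative difference among the genes named by rule. It measured 31.2, 25.9 and 45.1 CPM in shNC1, 6.13, 5.62 and 5.96 CPM in TEX10_sh, 4.70 and 4.64 CPM in shNC2, and 12.2 and 13.2 CPM in p65_sh. The libraries of each knockdown were clear of their controls, in opposite directions, and shNC1 was the highest group and shNC2 the lowest (control difference 2.70). The top 5 genes of each pattern were picked only among genes without overlap in the effects called. For those genes such separation, here and below, followed from the choice and is no separate support. The TEX10 effect was -2.40 ± 0.12 and the RELA effect 1.35 ± 0.15, and the difference was -3.75 ± 0.19 (adjusted p = 1.48e-11). SLC7A11, the cystine and glutamate exchanger, measured 116, 106 and 152 CPM in shNC1, 59.2, 63.3 and 60.3 CPM in TEX10_sh, 37.3 and 37.4 CPM in shNC2, and 89.2 and 82.9 CPM in p65_sh. Again neither knockdown overlapped its control, and the TEX10_sh libraries ended above the shNC2 libraries. The difference was -2.20 ± 0.12, from a TEX10 effect of -1.01 and a RELA effect of 1.19, beside a control difference of 1.71.

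ASNS, which makes asparagine, measured 200.8, 191 and 255 CPM in shNC1, 88.7, 87.4 and 84.8 CPM in TEX10_sh, 99.9 and 96.7 CPM in shNC2, and 166 and 167 CPM in p65_sh. Neither knockdown overlapped its control, TEX10_sh was the lowest group, below shNC2, and p65_sh lay between the controls. The difference was -2.05 ± 0.10 (adjusted p = 7.56e-12), with effects of -1.29 and 0.76 and a control difference of 1.12. In each of CHAC1, SLC7A11 and ASNS the third shNC1 library was the highest of all. Without it the differences were -3.53, -2.05 and -1.93, each still past the threshold.

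The first enzymes of serine synthesis moved the same way as ASNS. PHGDH (ENSG00000092621), the first step of the pathway, measured 146, 142 and 152 CPM in shNC1, 72.2, 69.4 and 66.9 CPM in TEX10_sh, 87.4 and 91.7 CPM in shNC2, and 124 and 138 CPM in p65_sh. No knockdown library overlapped its control, and TEX10_sh was the lowest group and shNC1 the highest. The TEX10 effect was -1.08 ± 0.04, the RELA effect 0.55 ± 0.049, and the difference -1.62 ± 0.063 (adjusted p = 2.53e-13). PSAT1, the next step, measured 159, 150 and 195 CPM in shNC1, 94.4, 94.9 and 98.8 CPM in TEX10_sh, 84.6 and 82.8 CPM in shNC2, and 154 and 160 CPM in p65_sh. The p65_sh libraries reached the range of shNC1, and TEX10_sh lay close above shNC2. The difference was -1.70 ± 0.095, beside a control difference of 0.99 at PSAT1 and 0.71 at PHGDH. MTHFD2, of the mitochondrial folate cycle, followed with a difference of -0.96 ± 0.06 from effects of -0.64 and 0.32. Of 18 serine synthesis and folate-cycle genes tested, 10 (55.6%) passed with a negative difference and 2 (11.1%), MTR and GCSH, with a positive one. The median difference of the 18 was -0.23.

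Of 22 tested ATF4 target genes, 15 (68.2%) passed with a negative difference and 1 (4.5%), ALDH18A1, with a positive one (0.18), and the median was -0.59. After TEX10 knockdown 18 of them fell and 3 rose, while after RELA knockdown 2 fell and 9 rose. The control difference was positive and called in 17, with a median of 0.40, so shNC1 stood above shNC2 across the list. Without the third shNC1 library 15 members still passed with a negative difference, and the median was -0.51. ATF4, the regulator for which the list is named and singled out after its values were seen, measured 465, 448 and 507 CPM in shNC1, 328, 344 and 341 CPM in TEX10_sh, 336 and 348 CPM in shNC2, and 422 and 436 CPM in p65_sh. Its levels in TEX10_sh overlapped those in shNC2, and its levels in p65_sh lay between shNC2 and shNC1. The TEX10 effect was -0.48, the RELA effect 0.33 and the difference -0.81 ± 0.058.

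PCK2 and DDIT3, also ATF4 targets, fell after TEX10 knockdown. Whether their RELA effect passed depended on 1 shNC1 library, through the estimate of spread that all 4 groups share. PCK2, the mitochondrial phosphoenolpyruvate carboxykinase, measured 50.6, 48.2 and 68.7 CPM in shNC1, 16.6, 17.1 and 15.2 CPM in TEX10_sh, 25.9 and 27.5 CPM in shNC2, and 31.2 and 34.4 CPM in p65_sh. The TEX10_sh libraries were the lowest of all and p65_sh lay a little above shNC2. The TEX10 effect was -1.73 ± 0.088, and the RELA effect of 0.29 had a 95% interval of 0.07 to 0.52. DDIT3, which encodes the stress regulator CHOP, measured 22.7, 19.1 and 37.4 CPM in shNC1, 6.79, 6.69 and 6.65 CPM in TEX10_sh, 12.3 and 11.8 CPM in shNC2, and 8.13 and 10.3 CPM in p65_sh. Both knockdowns lay below their controls, and the RELA effect did not pass. The effect of TEX10 knockdown was -1.84 ± 0.15 and the RELA effect -0.38 (interval -0.75 to -0.00075), which leaves a difference of -1.46 ± 0.23. ULBP1, a stress ligand seen by natural killer cells, is not on the list and had a difference of -1.42 ± 0.14 from effects of -1.11 and 0.31. The control differences were 1.03 at PCK2, 1.04 at DDIT3 and 0.75 at ULBP1. Without the third shNC1 library the RELA effect passed in all 3 genes, with limma adjusted p-values of 0.00106 for PCK2, 0.00524 for DDIT3 and 0.00401 for ULBP1. That library is no part of the RELA effect, which stayed at 0.29 for PCK2, -0.38 for DDIT3 and 0.31 for ULBP1. Only the SE fell, from 0.11 to 0.066 for PCK2, from 0.18 to 0.10 for DDIT3 and from 0.11 to 0.081 for ULBP1. PCK2 and ULBP1 then had opposite effects, and DDIT3 fell in both experiments.

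Amino acid transporters gave the highest number of opposite members among the lists. Of 19 tested, 9 had opposite effects, against 488 of all 17922 genes tested. Of the 9, 8 were lower after TEX10 knockdown and higher after RELA knockdown, and 1 was the reverse. In the difference 10 (52.6%) passed as negative and 2 (10.5%), SLC1A1 (0.66) and SLC1A3 (1.04), as positive, and the median was -0.27. SLC7A5, the large neutral amino acid transporter, measured 614, 602 and 688 CPM in shNC1, 382, 398 and 401 CPM in TEX10_sh, 376 and 390 CPM in shNC2, and 539 and 577 CPM in p65_sh. TEX10_sh matched the level of shNC2, and p65_sh stood between the controls. Its difference was -1.23 ± 0.063, and that of its partner chain SLC3A2 was -0.98 ± 0.058, from a TEX10 effect of -0.30 and a RELA effect of 0.68. SLC7A1, the cationic amino acid transporter, had a difference of -0.92 ± 0.058. Among 20 cytosolic aminoacyl-tRNA synthetases, the enzymes that charge tRNAs, 10 (50%) passed with a negative difference and 5 (25%) with a positive one. CARS (-0.51 and 0.29) and GARS (-0.32 and 0.40) fell after TEX10 knockdown and rose after RELA knockdown, while MARS rose after RELA knockdown alone (0.55) beside a TEX10 effect of -0.06. KARS, FARSB, HARS, FARSA and RARS were the 5 with a positive difference, of 0.34, 0.43, 0.27, 0.23 and 0.19. The control difference was called positive in 12 of the 19 transporters and in 11 of the 20 synthetases. Without the third shNC1 library, 3 synthetases in place of 5 passed with a positive difference.

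Because these genes moved together, their promoters were searched for TGATGNAA, the C/EBP-ATF response element to which ATF4 binds with partners, on both strands of the window from 250 bases before to 50 after the gene start (RefSeq, GRCh38.p14). Of the 170 genes that were lower after TEX10 knockdown and higher after RELA knockdown, 112 had a promoter in the table and 10 of these (8.93%) held the element. They included DLGAP1-AS2, FUT8 and GPX8, so they were not all genes of amino acid supply. It was held by 11 of 478 genes (2.3%) lower after TEX10 knockdown alone and 9 of 297 (3.03%) higher after RELA knockdown alone. Of all 10806 tested genes with a promoter, 186 (1.72%) held it, as did 3.67% of the 27305 promoters in the table. It was found in 3 of 18 ATF4 targets (16.7%), 4 of 18 transporters (22.2%) and 6 of 16 synthetases (37.5%), and a match is a description, not a binding site. Only some sites before the start are shown, in 4 genes that passed with a negative difference and in SLC1A3, which passed with a positive one. They run 5′ to 3′ on the strand of the gene. The element or its reverse complement is in capitals, since these letters are what the genes share.
ASNS, chr7:97872458-97872487, minus strand: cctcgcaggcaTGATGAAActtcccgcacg
CHAC1, chr15:40953251-40953280, plus strand: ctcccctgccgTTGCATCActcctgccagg
MTHFD1L, chr6:150866346-150866375, plus strand: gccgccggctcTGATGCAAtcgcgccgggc
AARS, listed as AARS1, chr16:70289675-70289704, minus strand: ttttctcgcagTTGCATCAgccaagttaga
SLC1A3, chr5:36596357-36596386, plus strand: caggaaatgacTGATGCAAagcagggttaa
The element began 68 bases before the start in ASNS, 209 in CHAC1, 129 in MTHFD1L, 187 in AARS and 220 in SLC1A3. ASNS, MTHFD1L and SLC1A3 carry it in the direction of the gene, and CHAC1 and AARS on the other strand. MTHFD1L, a mitochondrial folate enzyme, had a difference of -0.18, and AARS, the alanyl-tRNA synthetase, of -0.62, while SLC1A3, a glutamate transporter, had one of 1.04, so a gene with a difference of the other sign also held the element. Where no match was found, only these letters in this window are known to be absent.

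Genes outside amino acid metabolism also had opposite effects with lower levels after TEX10 knockdown. NES (ENSG00000132688), the gene for the intermediate filament nestin, measured 51.6, 53.9 and 49.1 CPM in shNC1, 21.4, 21.3 and 21.3 CPM in TEX10_sh, 58.0 and 60.2 CPM in shNC2, and 69.3 and 69.4 CPM in p65_sh. The TEX10_sh libraries stood well apart below the other 7, and p65_sh was highest. After TEX10 knockdown the effect was -1.25 ± 0.041 and the RELA effect 0.23 ± 0.05, with a difference of -1.48 ± 0.064 (adjusted p = 1.17e-12) and a control difference of -0.20. DHRS2, a short-chain dehydrogenase/reductase, measured 17.3, 17.8 and 17.6 CPM in shNC1, 7.83, 6.12 and 6.52 CPM in TEX10_sh, 39.9 and 41.6 CPM in shNC2, and 75.8 and 79.8 CPM in p65_sh. Here the experiments lay apart, with both RELA experiment groups above both TEX10 experiment groups, and the control difference was -1.19. The knockdown effects were -1.31 ± 0.066 and 0.92 ± 0.081. CLDN3, a tight junction claudin, had effects of -0.52 and 0.67. XBP1, a regulator of the unfolded protein response, had effects of -0.38 and 0.34, beside a control difference of 0.17.

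In the reverse pattern, 318 genes were higher after TEX10 knockdown and lower after RELA knockdown. TNFRSF10D (ENSG00000173530), a decoy receptor for the death ligand TRAIL, measured 70.2, 65.3 and 71.3 CPM in shNC1, 94.0, 94.9 and 97.3 CPM in TEX10_sh, 107 and 112 CPM in shNC2, and 55.7 and 52.9 CPM in p65_sh. Each knockdown was clear of its control, and shNC2 was the highest group and p65_sh the lowest. The effect of TEX10 knockdown was 0.47 ± 0.037, the RELA effect -1.002 ± 0.046 and the difference 1.47 ± 0.059 (adjusted p = 4.37e-13), beside a control difference of -0.66. PAM (ENSG00000145730), which amidates the ends of secreted peptides, measured 247, 241 and 253 CPM in shNC1, 362, 354 and 350 CPM in TEX10_sh, 266 and 259 CPM in shNC2, and 168 and 162 CPM in p65_sh. The 2 control groups lay close to each other, with TEX10_sh above and p65_sh below all of them. The effects were 0.52 ± 0.029 and -0.67 ± 0.035, and the difference was 1.19 ± 0.046 (adjusted p = 2.36e-13), beside a control difference of -0.09.

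VAMP7, a SNARE protein of vesicle fusion, had the largest difference of the 318 among genes named by rule. It measured 44.4, 43.8 and 44.2 CPM in shNC1, 49.2, 48.1 and 49.4 CPM in TEX10_sh, 48.4 and 47.0 CPM in shNC2, and 11.99 and 12.1 CPM in p65_sh. The p65_sh libraries were far below the other 8, whose levels lay within a narrow band. The RELA effect was -1.94 ± 0.048 and the TEX10 effect 0.15 ± 0.039. Its TEX10_sh libraries overlapped shNC2, and without the third shNC1 library the TEX10 effect missed the threshold (limma, adjusted p = 0.0114), which leaves VAMP7 lower after RELA knockdown alone. VAMP7 lies in a region shared by the sex chromosomes, so the counting may have split its reads. SBDS, which acts in a late step of large ribosomal subunit maturation, measured 35.5, 36.0 and 35.7 CPM in shNC1, 50.6, 53.05 and 48.7 CPM in TEX10_sh, 42.5 and 40.3 CPM in shNC2, and 21.0 and 22.3 CPM in p65_sh. TEX10_sh was above and p65_sh below all control libraries, with effects of 0.50 ± 0.044 and -0.92 ± 0.054 and a control difference of -0.21. FCGBP, a mucus protein, measured 21.3, 20.4 and 22.2 CPM in shNC1, 37.0, 39.2 and 38.0 CPM in TEX10_sh, 11.5 and 13.8 CPM in shNC2, and 7.29 and 8.34 CPM in p65_sh. Both groups of the TEX10 experiment lay above both of the RELA experiment, and its effects were 0.82 ± 0.066 and -0.66 ± 0.081 beside a control difference of 0.73.

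COX14, needed to assemble cytochrome c oxidase, had a difference of 1.37 ± 0.10 from effects of 0.39 and -0.98, with a control difference of -0.11 that did not pass. DPF3, a chromatin reader, was low, at 0.883, 0.776 and 0.835 CPM in shNC1, 1.46, 1.61 and 1.66 CPM in TEX10_sh, 0.979 and 1.37 CPM in shNC2, and 0.556 and 0.631 CPM in p65_sh, and its effects were 0.64 and -0.61. CDK6, a G1 kinase, was higher after TEX10 knockdown (0.47) and lower after RELA knockdown (-0.26), beside a control difference of 0.08 that did not pass. In the interferon-induced IFITM family, IFITM3 did the same with 0.34 and -0.35 and IFITM2 with 0.17 and -0.27, but IFITM1 fell after TEX10 knockdown (-0.81) beside a RELA effect of 0.23 that did not pass. ISG15, a ubiquitin-like modifier, had effects of 0.48 and -0.21. The control difference was -0.44 at ISG15, 0.20 at IFITM3 and 0.21 at IFITM2. IFITM genes are near-identical neighbours, so their values are uncertain where reads were shared. Across the class the median TEX10 effect was 0.23 and the median RELA effect -0.27. In the 170 genes of the other direction they were -0.29 and 0.30.

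**Figure D2:**
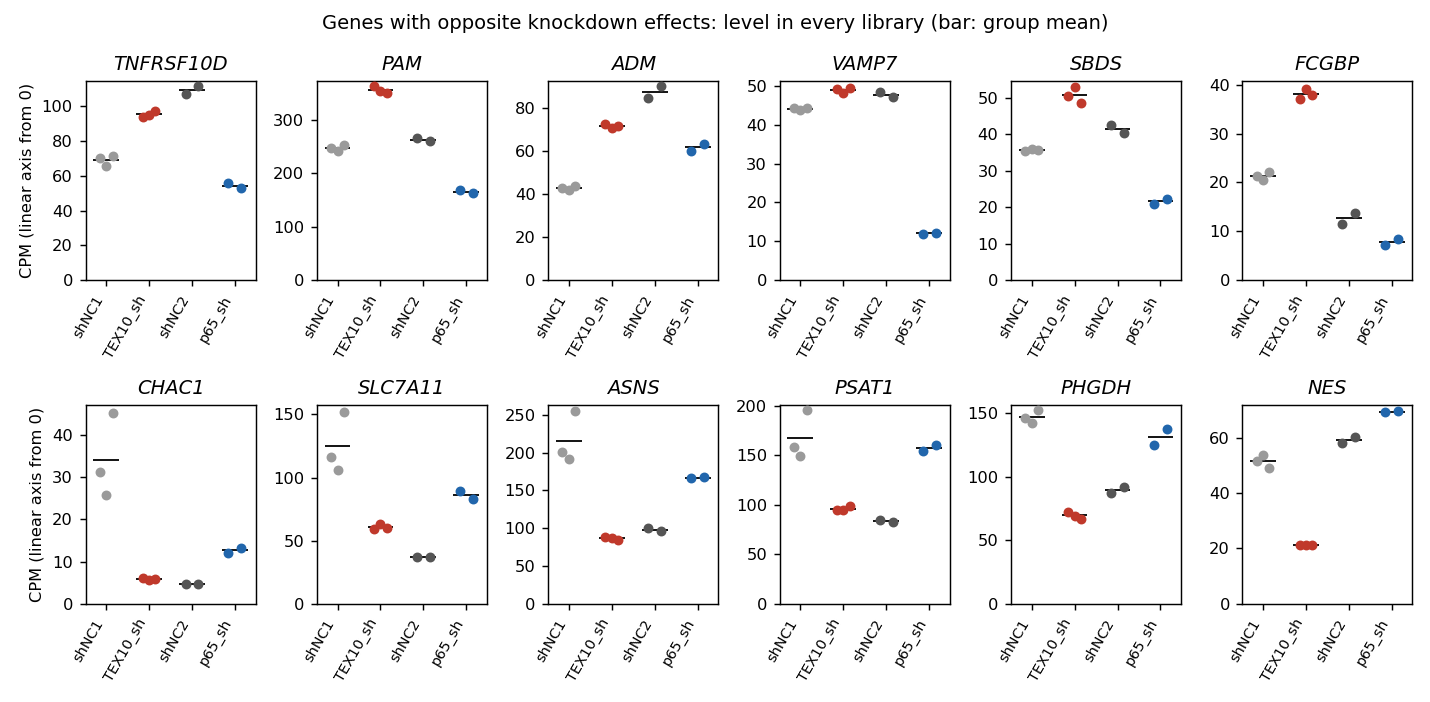
Level in every library (points, CPM on a linear axis from 0) and group mean (bars) of 12 genes with opposite effects, 6 higher after TEX10 knockdown in the upper panels and 6 lower in the lower panels. In PAM and VAMP7 the control groups lie close together, while in CHAC1, SLC7A11 and ASNS shNC1 lies well above shNC2 and its replicate 3 is the highest.

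Among the 837 genes that rose after TEX10 knockdown alone was SULF2, an endosulfatase that trims heparan sulfate outside the cell. It measured 25.04, 26.8 and 25.6 CPM in shNC1, 57.5, 55.8 and 56.6 CPM in TEX10_sh, 25.4 and 26.4 CPM in shNC2, and 23.7 and 25.4 CPM in p65_sh. The TEX10_sh libraries were far above the rest, and the other 3 groups overlapped. After TEX10 knockdown the effect was 1.12 ± 0.045, and the RELA effect of -0.08 had a 95% interval of -0.19 to 0.04. NRP1, a co-receptor for semaphorins and VEGF, measured 2.29, 2.74 and 2.30 CPM in shNC1, 11.04, 10.6 and 9.90 CPM in TEX10_sh, 3.36 and 2.99 CPM in shNC2, and 4.14 and 3.54 CPM in p65_sh. TEX10_sh stood above the rest, and p65_sh lay slightly above shNC2. The effects were 1.91 ± 0.10 and 0.24 ± 0.12, with a 95% interval of -0.02 to 0.50 for the RELA effect, which did not pass. CPA4, a carboxypeptidase, had a TEX10 effect of 1.87 ± 0.06, and its RELA effect of 0.22 (interval 0.07 to 0.38) missed the adjusted threshold. The control difference at CPA4 was -0.52. RP11-297P16 (1.31), a transcript known by its clone name, was among the top 5 as well.

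Of the 669 genes that fell after TEX10 knockdown alone, SERINC1, a membrane protein of the serine incorporator family, was among the top 5. It measured 93.2, 89.4 and 99.5 CPM in shNC1, 38.8, 38.9 and 39.6 CPM in TEX10_sh, 92.0 and 85.2 CPM in shNC2, and 98.0 and 88.7 CPM in p65_sh. The TEX10_sh libraries lay far below all others, and the p65_sh and shNC2 libraries overlapped. The effect of TEX10 knockdown was -1.25 ± 0.044, the RELA effect 0.07 (interval -0.04 to 0.19) and the control difference 0.08. The level of TEX10 itself was also in this group.

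The p53 targets were the list with the highest count of positive differences. Of 61 tested, 41 (67.2%) passed with a positive difference and 3 (4.92%) with a negative one, against 12.1% and 8.66% of all genes tested. The median difference was 0.49. By share the hypoxia and glycolysis genes lay close, with 30 of 45 (66.7%) positive, so the higher count partly reflects a longer list. After TEX10 knockdown 51 rose, and after RELA knockdown 26 rose and 5 fell. The median effects were 0.59 and 0.17, and the control difference of the list had a median of -0.04. Without the third shNC1 library 43 had a positive difference. By pattern, 19 of the called members passed after TEX10 knockdown alone, 18 moved the same way in both, 4 had opposite effects and 3 passed after RELA knockdown alone. Over all 17922 genes tested these numbers were, in the same order, 1506, 519, 488 and 1080.

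CDKN1A (ENSG00000124762), the p21 inhibitor of cyclin-dependent kinases, rose in both experiments and more after TEX10 knockdown. It measured 224, 231 and 234 CPM in shNC1, 753, 811 and 770 CPM in TEX10_sh, 275 and 282 CPM in shNC2, and 356 and 366 CPM in p65_sh. No knockdown library overlapped any control, and the TEX10_sh libraries were also clear above p65_sh. After TEX10 knockdown the effect was 1.76 ± 0.03, the RELA effect 0.37 ± 0.037 and the difference 1.39 ± 0.048 (adjusted p = 5.05e-14), with a control difference of -0.28. BTG2, an antiproliferative gene, measured 26.6, 27.4 and 26.1 CPM in shNC1, 86.1, 95.9 and 85.9 CPM in TEX10_sh, 33.9 and 31.8 CPM in shNC2, and 41.2 and 42.2 CPM in p65_sh. It followed the same order of groups as CDKN1A, with effects of 1.72 ± 0.045 and 0.34 ± 0.056. MDM2, the ubiquitin ligase for p53, singled out after its values were seen, rose by 1.203 and 0.44, and the death receptor gene FAS rose by 1.44 and 0.36.

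Of the 5 p53 targets that fell after RELA knockdown, TNFRSF10D is described above. DDB2 (TEX10 effect 0.44, RELA effect -0.25) and XPC (0.45 and -0.15), which recognise damaged DNA, also rose after TEX10 knockdown and fell after RELA knockdown. POLH, a polymerase that copies past lesions, rose by 0.70 after TEX10 knockdown, and its RELA effect of -0.20 did not pass. The 3 members with a negative difference were GDF15, SESN2 and TRIAP1. GDF15, a secreted stress cytokine, rose by 0.34 after TEX10 and 1.09 after RELA knockdown, and SESN2, which is also on the ATF4 list, by 0.02 and 0.55, of which the first did not pass. TRIAP1 rose by 0.38 after RELA knockdown, and its TEX10 effect of -0.12 did not pass. DDB2, XPC, POLH, GDF15, SESN2 and TRIAP1 were chosen after their values were seen, as were, below and above, members named only to complete a count within a list.

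**Figure D3:**
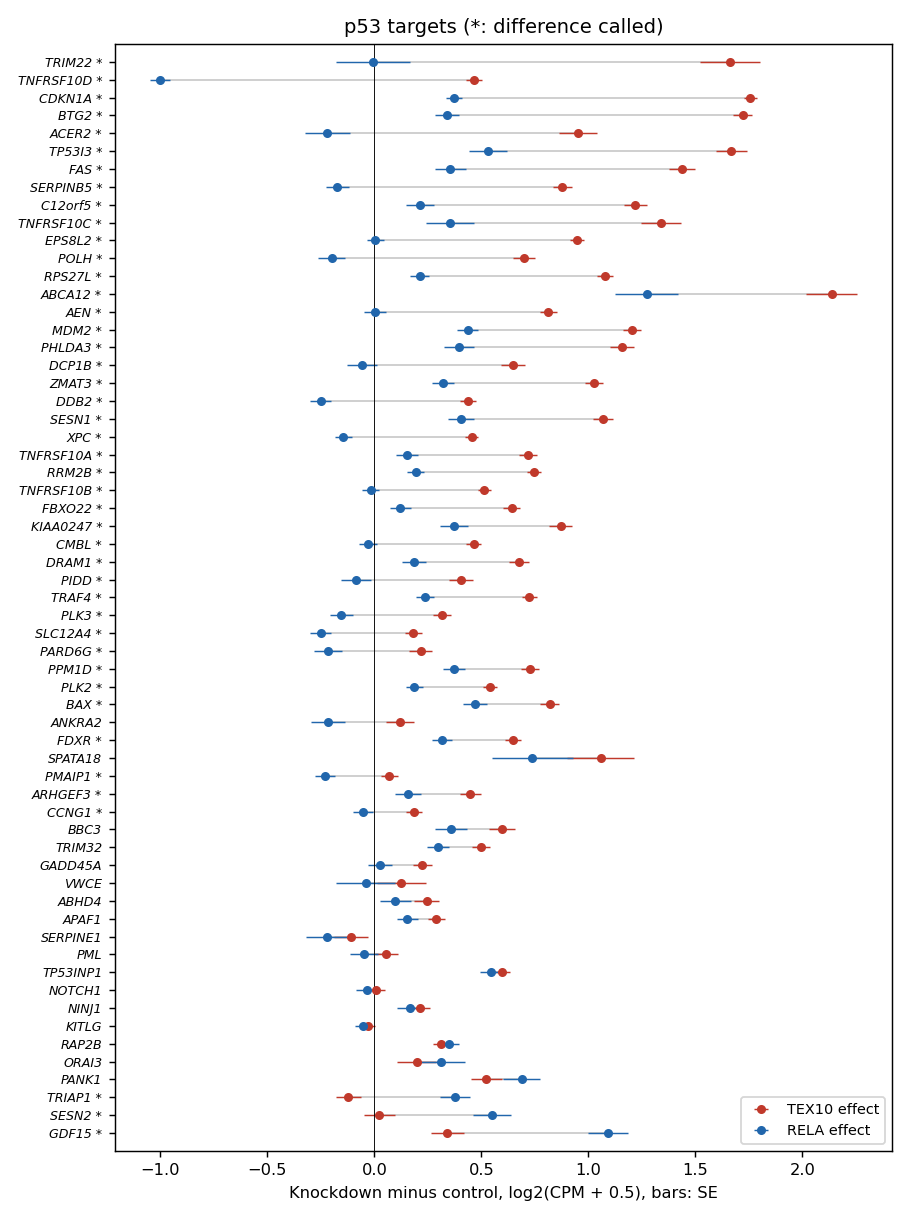
TEX10 effect (red) and RELA effect (blue) of each of 61 p53 targets with SE bars (x axis, log2(CPM + 0.5)), ordered by the difference, with an asterisk where the difference was called. The TEX10 effect lies right of the RELA effect in the 41 called positive members, and GDF15, SESN2 and TRIAP1 at the bottom show the reverse.

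The genes that fell after RELA knockdown alone numbered 621. PARP1, which adds ADP-ribose chains at DNA breaks, measured 460, 473 and 453 CPM in shNC1, 446, 443 and 440 CPM in TEX10_sh, 483 and 488 CPM in shNC2, and 153 and 159 CPM in p65_sh. The p65_sh libraries were far below the other 8, which lay close together. The RELA effect was -1.63 ± 0.033, the TEX10 effect -0.06 (95% interval -0.12 to -0.0044) and the difference 1.57 ± 0.043 (adjusted p = 1.34e-15). IL10RB, a receptor chain for IL-10 family cytokines, measured 19.6, 18.2 and 19.4 CPM in shNC1, 19.0, 20.1 and 19.2 CPM in TEX10_sh, 24.4 and 22.2 CPM in shNC2, and 6.49 and 6.94 CPM in p65_sh. The p65_sh libraries were far below the rest, and shNC2 was somewhat above shNC1 (control difference -0.28), with a RELA effect of -1.72 ± 0.073 and a TEX10 effect of 0.03 (interval -0.10 to 0.15). MINPP1, an inositol polyphosphate phosphatase, gave a RELA effect of -1.19 ± 0.059 and TPRG1L, a presynaptic protein, one of -1.14 ± 0.052, with TEX10 effects of 0.11 and 0.06.

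KM-PA-2 had the largest positive difference among the genes named by rule, 3.24 ± 0.41. It measured 14.5, 16.6 and 12.2 CPM in shNC1, 20.51, 12.9 and 9.68 CPM in TEX10_sh, 5.09 and 14.1 CPM in shNC2, and 0.216 and 0.666 CPM in p65_sh. Both p65_sh libraries were under 1 CPM, but the shNC2 libraries differed widely from each other and the TEX10_sh libraries also spread widely, so the size is poorly set. Its symbol is a clone-style name, and its reads may be shared with other loci. GINS2, a subunit of the replicative helicase, fell after RELA knockdown (-0.98 ± 0.072) with a TEX10 effect of 0.09 and a control difference of -0.45. BIRC2, an inhibitor of apoptosis and regulator of NF-kB, fell likewise (-0.77 ± 0.049) with a TEX10 effect of 0.10. That TEX10 effect passed without the third shNC1 library (limma, adjusted p = 0.0055).

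Rises after RELA knockdown alone were seen in 459 genes. MT1E, a metallothionein that binds zinc and copper, measured 120, 127 and 132 CPM in shNC1, 112, 122 and 121 CPM in TEX10_sh, 128 and 126 CPM in shNC2, and 223 and 262 CPM in p65_sh. The p65_sh libraries stood above the other 8, which overlapped across groups. The RELA effect was 0.93 ± 0.059 and the TEX10 effect -0.09 (95% interval -0.19 to 0.01), although metallothioneins are close paralogs that may share reads. ZBED2, a zinc finger regulator, measured 23.5, 21.8 and 23.8 CPM in shNC1, 24.6, 24.2 and 26.2 CPM in TEX10_sh, 11.2 and 10.2 CPM in shNC2, and 23.7 and 25.3 CPM in p65_sh. The p65_sh libraries reached the level of shNC1 and TEX10_sh, and shNC2 alone was low, with a control difference of 1.07. PADI3, a peptidylarginine deiminase, had a RELA effect of 1.30 ± 0.13 and a TEX10 effect of -0.03, HSD17B1, which makes estradiol, a RELA effect of 1.06 beside a TEX10 effect close to 0, and PLAT, the tissue plasminogen activator, a RELA effect of 0.87 and a TEX10 effect of -0.13. In these last 3 the control difference was 0.76, 0.67 and 0.37. JUND, a member of AP-1, rose after RELA knockdown alone (0.60) beside a control difference of 0.05 that did not pass.

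Of 45 hypoxia and glycolysis genes tested, 30 (66.7%) passed with a positive difference (median 0.32), against 12.1% of all genes tested. After RELA knockdown 36 fell, while after TEX10 knockdown 16 fell and 8 rose. The control groups were far apart here, with 41 of the 45 lower in shNC1 (median control difference -0.66) and shNC2 the highest of the 4 groups. ADM, a secreted vasodilator peptide, measured 42.6, 42.0 and 43.8 CPM in shNC1, 72.4, 70.6 and 71.7 CPM in TEX10_sh, 84.8 and 90.1 CPM in shNC2, and 60.2 and 63.5 CPM in p65_sh. Both knockdowns moved toward each other, from a control difference of -1.02. The effects were 0.74 ± 0.037 and -0.50 ± 0.045. SLC2A1, the glucose transporter GLUT1, had effects of 0.47 and -0.25, beside a control difference of -0.24. HK2, the hexokinase at the head of glycolysis, measured 62.8, 67.9 and 71.3 CPM in shNC1, 63.5, 64.2 and 59.5 CPM in TEX10_sh, 151 and 156 CPM in shNC2, and 84.0 and 80.0 CPM in p65_sh. It fell after RELA knockdown (-0.90) and TEX10_sh overlapped shNC1 (-0.11).

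Of 25 sterol synthesis genes tested, 22 fell after RELA knockdown (median -0.47) and 15 after TEX10 knockdown (median -0.20). In the difference 13 (52%) passed as positive and 1 (4%), SQLE (-0.26), as negative. Of the same 25, 15 were lower in shNC1 than in shNC2 (median control difference -0.18). HMGCS1, an early enzyme of the pathway, had effects of -0.24 ± 0.036 and -0.74 ± 0.044, beside a control difference of -0.10 that did not pass.

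Of 48 mitosis genes tested, 45 fell after TEX10 knockdown (median -0.40) and 34 after RELA knockdown (median -0.26). In the difference 17 (35.4%) passed as negative and 2 (4.17%), CDC25B and ECT2, as positive. All 48 were lower in shNC1 than in shNC2 (median control difference -0.65), and the fall in bulk RNA cannot tell fewer cells in mitosis from less RNA per cell. CENPF, a kinetochore protein, measured 330, 338 and 335 CPM in shNC1, 214, 202 and 203 CPM in TEX10_sh, 492 and 488 CPM in shNC2, and 386 and 382 CPM in p65_sh. Every group was clear of the next, in the order shNC2, p65_sh, shNC1 and TEX10_sh. CCNB1, the mitotic cyclin, fell after TEX10 knockdown (-0.42 ± 0.033) with a RELA effect of -0.03 (interval -0.11 to 0.05). CDC25B, a phosphatase that activates CDK1, fell after RELA knockdown (-0.38) with a TEX10 effect of -0.02. Of 50 DNA replication genes 9 (18%) were negative and 4 (8%; CDC6, GINS2, FEN1 and CHAF1B) positive in the difference, against 8.66% and 12.1% of all genes tested. In 32 of them shNC1 was below shNC2 (median control difference -0.25), and without the third shNC1 library 13 were negative, with a median difference of -0.11 in place of -0.05. RRM2, a ribonucleotide reductase subunit, gave -0.16 and 0.24, and CDT1, a licensing factor, fell after TEX10 knockdown alone (-0.33). Without the third shNC1 library CDC25B alone was left as a positive call, and 18 mitosis genes had a negative one.

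**Figure D4:**
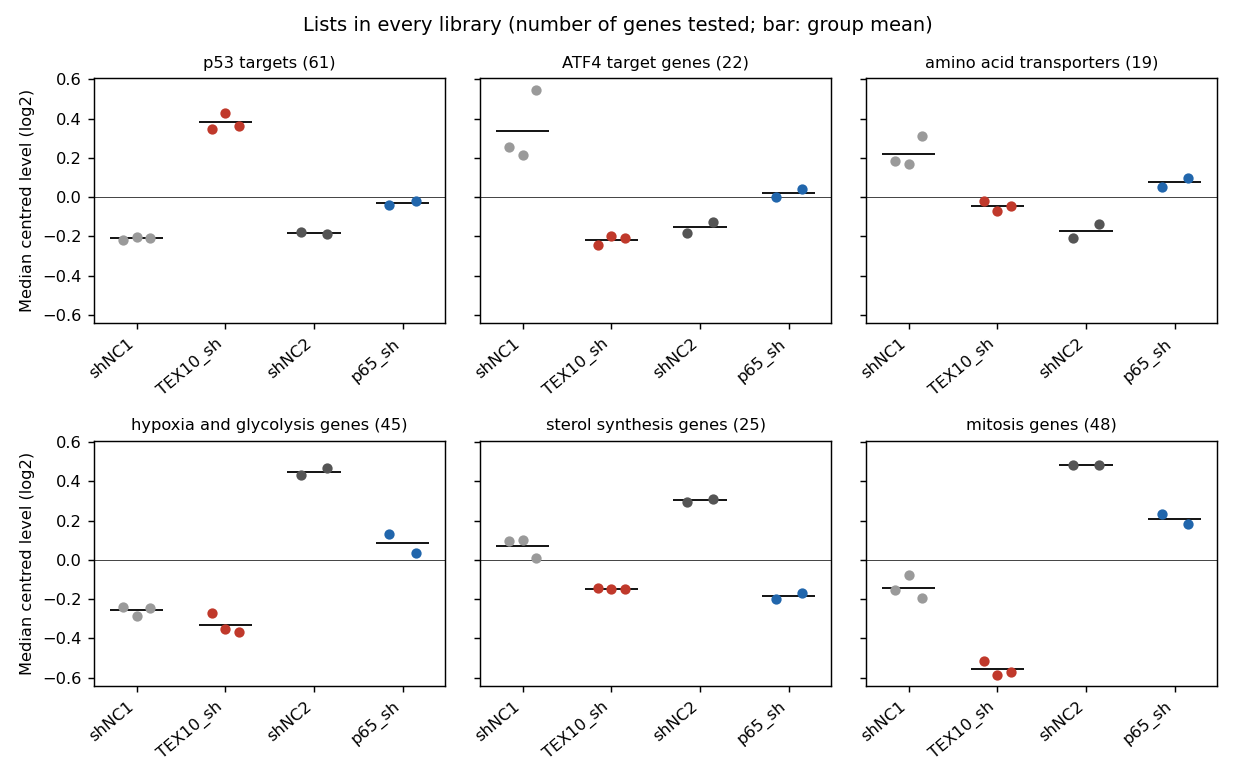
Median centred level of 6 gene lists in every library (points, log2, where 0 is the mean of the 4 group means) with group means as bars. The p53 targets are highest in TEX10_sh, with p65_sh next above both controls, the ATF4 targets and amino acid transporters are highest in shNC1, and the hypoxia and mitosis genes are highest in shNC2.

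Of 40 factors of the large subunit tested, 28 rose after TEX10 and 16 after RELA knockdown. In the difference 11 (27.5%) passed as positive and 1 (2.5%), NLE1, as negative (median 0.14), against 12.1% and 8.66% of all genes tested. GNL2 and NSA2, factors of the pre-60S particle, had opposite effects, of 0.17 and -0.21 and of 0.12 and -0.24, and PES1, a nucleolar factor, rose after TEX10 knockdown alone (0.47 ± 0.036). Of 40 genes of small subunit assembly and snoRNPs, 34 rose after TEX10 and 17 after RELA knockdown. Of these 40, 7 (17.5%) had a positive difference and 1 (2.5%), UTP14A, a negative one. NOL11 (0.31 and -0.23), RRP12 (0.44 and 0.11) and UTP11L (0.45 and 0.04) had the smallest p-values of this list. Of 77 ribosomal protein genes 8 (10.4%) were positive and 5 (6.49%; RPL3, RPL10A, RPL12, RPL28 and RPL36) negative, both below the shares over all genes, and the median difference was 0.05. In 50 of them shNC1 was below shNC2 (median control difference -0.16). The calls included RPL11 (0.24), which can bind MDM2, RPL10A (-0.26) and RPL12 (-0.24), all of which have pseudogene copies that can share reads. Of the 7 genes of the TEX10 complex and its partners, only TEX10 passed in the difference. NOL9, a polynucleotide kinase, gave 0.16 and 0.35 with a difference of -0.19 (adjusted p = 0.081), and MDN1, an ATPase that remodels pre-60S particles, 0.03 and 0.15 with a difference of -0.12 (adjusted p = 0.043).

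Of 52 NF-kB target genes tested, 11 (21.2%) passed with a positive difference and 3 (5.77%; IL18, SAT1 and IER3) with a negative one, against 12.1% and 8.66% of all genes tested, and the median difference was 0.11. After TEX10 knockdown 16 rose and 15 fell, and after RELA knockdown 6 rose and 17 fell. CFLAR, which blocks caspase-8 at death receptors, measured 35.3, 35.7 and 39.0 CPM in shNC1, 48.7, 53.5 and 50.4 CPM in TEX10_sh, 34.9 and 30.2 CPM in shNC2, and 28.8 and 25.5 CPM in p65_sh. It was higher after TEX10 knockdown and lower after RELA knockdown without overlap, with effects of 0.47 ± 0.058 and -0.26 ± 0.071. IER3, an early response gene, measured 529, 514 and 592 CPM in shNC1, 308, 297 and 301 CPM in TEX10_sh, 356 and 392.3 CPM in shNC2, and 341 and 350 CPM in p65_sh. The effect of TEX10 knockdown was -0.85 ± 0.042, the RELA effect -0.11 (interval -0.22 to -0.0042) and the control difference 0.54. BIRC2, described above, had the largest difference on this list, 0.87. Of 29 pathway components 6 (20.7%) had a positive and 3 (10.3%; IKBKB, MAP3K14 and SHARPIN) a negative difference, the second close to the share over all genes. They were led, after RELA, by the deubiquitinase CYLD (0.42 and -0.25) and the kinase MAP3K14 (-0.18 and 0.33). The NF-kB consensus was found in the promoters of 19 of 43 NF-kB targets (44.2%) and in 13.3% of tested genes. It was found in 80 of 473 genes (16.9%) that fell after RELA knockdown alone. Among genes higher after TEX10 and lower after RELA knockdown it was found in 36 of 258 (14%). Where the difference was called but neither effect passed, 11 of 77 (14.3%) held it.

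Of 50 immediate early genes 30 fell and 6 rose after TEX10 knockdown, and 24 fell and 6 rose after RELA knockdown. In the difference 17 (34%) were negative and 10 (20%) positive, against 8.66% and 12.1% of all genes tested. BTG2, IER3 and JUND, all described above, had the smallest p-values. In this list the medians of the 2 effects were alike, at -0.27 in each.

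Genes of the extracellular matrix and cell adhesion had 21 positive (39.6%) and 4 negative (7.55%) differences (VIM, SPARC, LOXL1 and AXL) among 53 tested, with a median of 0.15. Of all genes tested 12.1% were positive and 8.66% negative. COL17A1, the hemidesmosome collagen, measured 6.23, 5.87 and 6.80 CPM in shNC1, 34.8, 35.7 and 33.9 CPM in TEX10_sh, 7.83 and 9.22 CPM in shNC2, and 11.1 and 12.2 CPM in p65_sh. TEX10_sh stood far above the other groups and p65_sh slightly above shNC2. The effects were 2.38 ± 0.073 and 0.43 ± 0.089, beside a control difference of -0.41. ITGA2, a collagen receptor chain, measured 152, 140 and 164 CPM in shNC1, 137, 134 and 131 CPM in TEX10_sh, 126 and 128 CPM in shNC2, and 51.0 and 47.2 CPM in p65_sh. Its large change was after RELA knockdown (-1.36 ± 0.054), beside a TEX10 effect of -0.17 that missed the threshold without the third shNC1 library (limma, adjusted p = 0.0235). TPM2, a tropomyosin, had opposite effects of 0.19 and -0.45 beside a control difference of -0.02 that did not pass. Of 25 intestinal epithelial markers, 3 (12%; KRT19, MUC12 and ESRP2) were positive and 5 (20%; EPCAM, CLDN3, CLDN4, KRT20 and TSPAN1) negative. The positive share was close to that of all genes tested. KRT19, an epithelial keratin, was higher after TEX10 knockdown (0.55) and lower after RELA knockdown (-0.12), beside a control difference of -0.50. Its mean was 734 CPM in shNC1, 1075 CPM in TEX10_sh and 1042 CPM in shNC2, so TEX10_sh came to the level of the other control. ESRP2, a splicing factor of epithelial cells, rose after TEX10 knockdown alone (0.41).

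Of 40 interferon-stimulated genes 11 (27.5%) were positive and 2 (5%; IFITM1 and BST2) negative, against 12.1% and 8.66% of all genes tested. Of 28 NRF2 targets 8 (28.6%) were positive and 3 (10.7%; NQO1, SLC7A11 and PGD) negative. Among them ME1, the NADP-dependent malic enzyme (0.63 after TEX10 knockdown), and GCLM, of glutathione synthesis (0.58), rose after TEX10 knockdown alone. Of 36 apoptosis regulators 15 (41.7%) were positive and 4 (11.1%; BMF, HRK, XIAP and BIRC5) negative, but 9 tested members of that list are p53 targets. Of 21 G1 cyclins, kinases and inhibitors 4 (19.05%; CCND1, CDK6, CDKN1A and RB1) were positive and 4 (19.05%; CDKN1B, RBL2, E2F1 and E2F3) negative. CCND1, the D1 cyclin, rose in both (0.75 and 0.35). Of 22 ER chaperone and unfolded protein response genes 5 (22.7%; DNAJC3, CANX, HYOU1, MANF and SEL1L) were positive and 1 (4.5%), XBP1, negative. CANX, the chaperone calnexin, measured 842, 851 and 842 CPM in shNC1, 750, 760 and 736 CPM in TEX10_sh, 847 and 829 CPM in shNC2, and 479 and 462 CPM in p65_sh. It fell by 0.83 on the log2 scale after RELA knockdown and by 0.18 after TEX10 knockdown, and HYOU1, another ER chaperone, fell by 0.65 after RELA knockdown alone. Of 13 mitochondrially encoded mRNAs 4 (30.8%) were negative, MT-ND4L and MT-CYB (0.18 and 0.56), MT-ND2 (0.04 and 0.34) and MT-ATP6 (-0.08 and 0.18). The call at MT-ATP6 was lost in 8 of 20 alternatives, with DESeq2, without the filter and with each of 6 libraries left out, and its adjusted p (limma, edgeR or DESeq2) reached 0.101. The mean share of reads from mitochondrial genes was 6.84% in shNC1 and 6.87% in TEX10_sh, against 6.55% with shNC2 and 7.28% with p65_sh, and its part in these values was not tested.

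**Figure D5:**
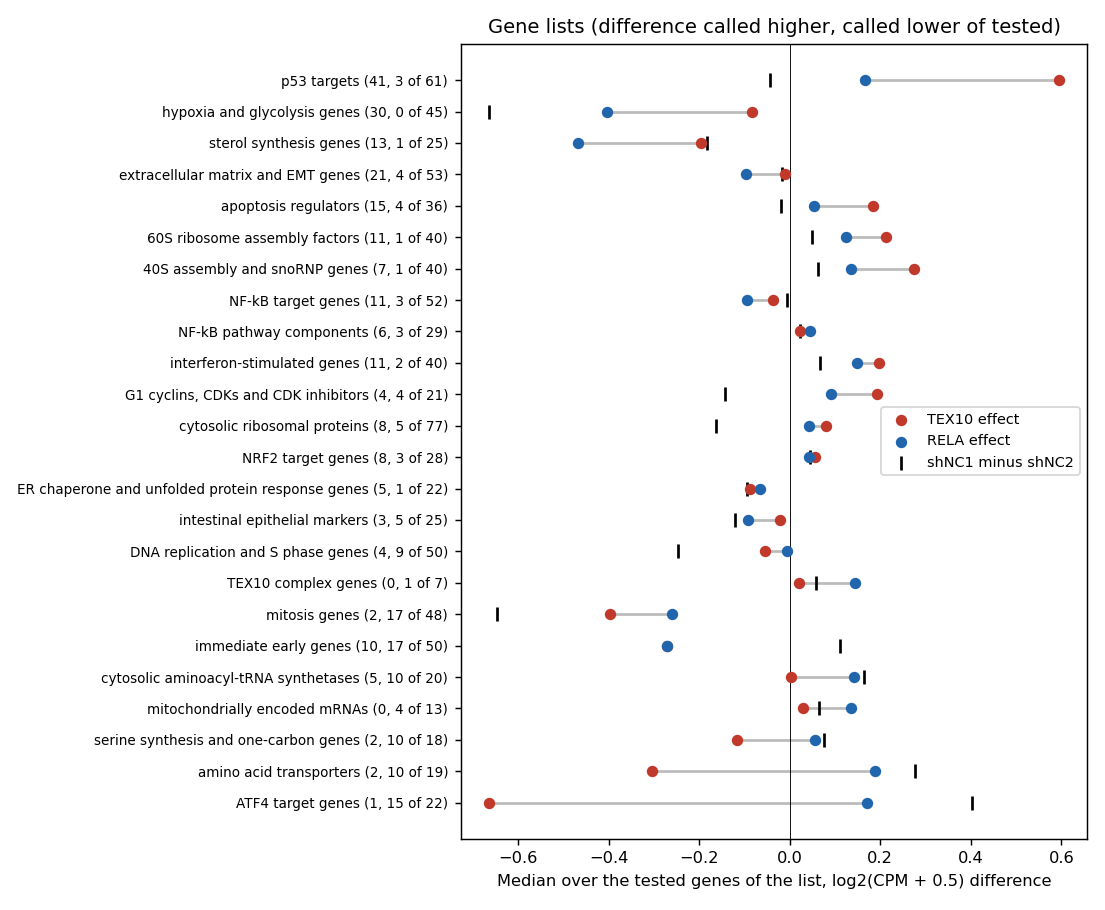
Median TEX10 effect (red), RELA effect (blue) and control difference (tick) of 24 gene lists (x axis, log2(CPM + 0.5)), ordered by the median difference, with the numbers of genes called positive and negative in the difference after each name. The p53 targets and the ATF4 targets mark the ends, at medians of 0.49 and -0.59, and the control ticks of the hypoxia, mitosis and ATF4 lists lie far from 0.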

How the data were processed

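RNA-seq of 10 HCT116 libraries was used. Per the submitters' processing notes, reads were processed with STAR 2.4.2a, RSEM 1.2.29, edgeR 3.8.5 and hg19, and the deposited values are CPM that the authors normalized per library for 57820 genes. The CPM steps gave whole reads for 100% of values within 0.01 of a whole number. No column belonged to another series (0 columns). Libraries held 28606464 to 44658105 reads, and the floor of 3 reads covers counting error only. Genes passing edgeR 4.0.16 filterByExpr (minimum count 10, total 15) were rescaled together by TMM, and limma 3.58.1 (R 4.3.3, trend) was fitted over all 4 groups to log2(CPM + 0.5), with 6 residual degrees of freedom. Fold changes are on that scale, which understates low genes. Calls had a Benjamini-Hochberg adjusted p under 0.01 over all genes tested. A pattern was set by which knockdown effects passed. Named genes were TEX10, RELA, the markers CDKN1A, PHGDH, PAM, TNFRSF10D and NES, for each of 6 patterns the 5 genes with the largest difference among those averaging 5 CPM or more and without overlap of the groups called, and for each list up to 3 members with the smallest adjusted p. Members and lists were chosen with earlier results of these data known. edgeR and DESeq2 1.42.0 on recovered reads, scaling, filter, pseudocount, threshold, replicate block and left-out libraries were tried as alternatives. The fits were run on simulated data in which genes changed in the TEX10_sh libraries only and all other groups were alike. That setting leaves out the difference between shNC1 and shNC2 seen here, so it does not cover it. Columns were grouped by the labels. Some genes that the rule or a later choice named are not reported here.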

Additional observations from a re-analysis of the deposited data

How the results depend on the processing

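On the recovered reads edgeR called 2088 differences positive and 1486 negative, and DESeq2 1887 and 1273. With no filter on low counts 1011 differences were negative and the opposite patterns held 191 (higher after TEX10 knockdown) and 94 genes. At an adjusted p under 0.05 they were 2496, 544 and 341. At 1.5-fold or more, asked of the difference and of each effect, 490 were positive and 431 negative, and the opposite patterns held 2 and 12 genes. Under that setting 241 and 293 genes passed after TEX10 and RELA knockdown alone. There the other effect could pass the adjusted p if it stayed under 1.5-fold, so these 2 counts define alone differently from the main ones. The extracellular matrix median was 0.2072 with edgeR and 0.2074 at a pseudocount of 0.1, and with library totals only the serine median was -0.2702 and the ER median -0.02349. The causes were not tested. With 1 library left out in turn, the medians ranged from -0.2866 to -0.2014 (serine), 0.0009807 to 0.05128 (ER), -0.1989 to -0.1136 (tRNA synthetases), 0.1307 to 0.2123 (matrix), 0.04547 to 0.1295 (interferon) and -0.01865 to 0.07831 (intestinal), where leaving out a RELA library leaves 1 sample in an arm that is assumed to vary like the others. Without shNC1 replicate 3, an alternative chosen after seeing the data, 3 tRNA synthetases and 1 mitosis gene had a positive and 2 small subunit genes a negative difference.

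Same-numbered libraries showed little joint deviation (r of 0.0133, 0.0375 and -0.0119 for TEX10 and 0.029 for RELA). With 2 libraries per RELA group the deviations mirror each other, so r there is forced to 1 size, 0.029 or -0.029. Deviations that hold counting error cannot exclude that the numbers pair the libraries. With the replicate block 2257 differences were positive and 1585 negative, and 359 and 187 genes were opposite. Of 99 named genes 93 passed, and 89 did so in all 20 alternatives. MT-ATP6, MT-ND2, CDT1 and UTP11L lost the call in at least 1, and MDN1 gained it with library totals only (-0.16). Most named genes were picked for a large difference or a small adjusted p in the main fit, so their recurrence is no independent test. Over all genes, 3100 of the 3717 calls were also made with DESeq2 and 2435 without the filter on low counts.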
